A study of Mus musculus with 18 samples.

Results

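Interferon-stimulated genes were followed through 18 RNA-seq libraries of mouse spleen B lineage cells. The list held 45 symbols, chosen by name for direct antiviral effectors, nucleic acid sensors, the ISG15 and ADP-ribosylation genes, guanylate-binding proteins and receptor or STAT genes. Of these, 44 had a row among the 12960 genes of the table and all 44 passed the filter on low values, as did 12787 genes in all, so no member was lost by it. The symbol without a row was Parp12, which was not analysed here. The 18 libraries formed 6 groups of 3. Ctrl mice carried 1 copy of a Cre recombinase allele, and KO mice carried the same allele with G9afl/fl, so every group held the Cre allele. G9a, encoded by Ehmt2, methylates histone H3 at lysine 9, a modification tied to gene silencing. Naive B cells came from uninfected mice by enrichment with CD43 beads. Activated B cells (B220+GL7+, gated free of F4/80, CD11b and Thy1.2) and plasma cells (CD138+ with low or intermediate B220) were sorted 72 h after 50 µg of lipopolysaccharide (LPS) in 100 µl was given into the tail vein. Each library held 1000 cells. The age of the mice is not given in the sources used here, nor whether the replicates of a group were separate animals, so p-values measure the spread between these libraries. Naive cells differed from activated ones in LPS exposure and in how they were isolated, and these cannot be told apart from cell type.

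Type I interferons bind a receptor made of IFNAR1 and IFNAR2, whose kinases phosphorylate STAT2 among other proteins. STAT2 and IRF9 are part of a complex that binds the interferon-stimulated response element and turns on genes whose products sense, cut, edit or trap foreign nucleic acid and particles. Interferon gamma, which has a receptor of its own, also drives the guanylate-binding proteins, and B cells make part of this program both at rest and after a signal through a Toll-like receptor such as that for LPS.

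The core of the response element was searched as GAAANNGAAA on both strands in RefSeq promoter windows of 300 bases (GRCm38.p6, the assembly of mm10, from 250 bases before to 50 after each start). A window was held for 33 members, and 17 of them (51.5%) had a match in any of their windows, against 417 of 10353 genes of the table with a window (4.03%). The members without a window were Mx1, Mx2, Oas2, Usp18, Ifi27, Dhx58, Zbp1, Rtp4, Parp9, Parp14 and Gbp6. The motif was held by 5 of the 10 members with a window that fell in activated KO cells (50%) and by 12 of the other 23 (52.2%). Promoter stretches are shown for 5 members that changed with genotype and hold the motif before the start of a window, and for Bst2, which did not, so that both kinds can be read side by side. For Ifit3 and Phf11b that start is an inner one. Their matches lie inside the whole gene intervals, chr19:34583119-34588982 and chr14:59320964-59341388. Each is written in the direction of transcription, with matches of the motif or its reverse complement, overlapping ones joined, in capitals. They lie at chr4:156200845-156200926 (minus strand, Isg15), chr19:34583343-34583446 (plus, Ifit3), chr7:104465194-104465259 (minus, Trim30a), chr10:128270248-128270315 (plus, Stat2), chr14:59341341-59341410 (minus, Phf11b) and chr8:71537557-71537632 (minus, Bst2).
Isg15: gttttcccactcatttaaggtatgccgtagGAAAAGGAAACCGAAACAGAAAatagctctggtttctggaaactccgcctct
Ifit3: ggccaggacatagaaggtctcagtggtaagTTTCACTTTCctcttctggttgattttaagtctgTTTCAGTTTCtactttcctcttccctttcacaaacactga
Trim30a: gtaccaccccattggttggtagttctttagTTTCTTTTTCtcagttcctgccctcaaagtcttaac
Stat2: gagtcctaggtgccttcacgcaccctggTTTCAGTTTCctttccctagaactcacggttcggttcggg
Phf11b: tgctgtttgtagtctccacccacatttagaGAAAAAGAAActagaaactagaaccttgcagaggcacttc
Bst2: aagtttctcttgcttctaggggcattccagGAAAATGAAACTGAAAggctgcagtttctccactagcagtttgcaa
Isg15 held 3 overlapping matches, Ifit3 and Bst2 held 2 each, and Trim30a, Stat2 and Phf11b held 1 each. Ddx58 also held 1 match, just after its start. A match is a string of letters and was not measured as a binding site here.

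Values are RPKM scaled between libraries, which is a level per length, given as mean ± SD with n = 3 in every group. Changes are differences of log2(scaled RPKM + 1) with their standard errors (SE), and a gene is called where the adjusted p from limma over all 12787 genes was under 0.05. Where Ctrl and KO libraries are said not to overlap, the share of all tested genes with such a separation was not counted. For genes picked by a call, separation is likely beforehand and adds no support. Naive libraries were the less exact ones. Estimated depth was 1.62 to 4.06 mega-reads in naive, 2.66 to 10.78 in activated and 5.09 to 6.92 in plasma cell libraries, and the median SD of a member on the log2 scale was 0.378 (naive Ctrl), 0.385 (naive KO), 0.114 (activated Ctrl), 0.139 (activated KO), 0.179 (plasma Ctrl) and 0.132 (plasma KO). Over 57 odorant receptor genes, which B cells are not known to use, the median level was 1.7 to 7.02 RPKM in naive libraries and at most 0.952 in the others, and 3 to 14 members lay at or below it in a naive library. The labelled cell types carried most, not all, of their listed markers. The plasma cell list (6 of 6 genes tested) summed to 8501 to 9528 RPKM in Ctrl plasma cells and 754 to 847 in Ctrl activated cells. The activated B cell list (6 of 6) summed to 263 to 343 in Ctrl activated and 55.6 to 65.5 in Ctrl naive cells. Of its genes 4 were called higher in activated cells and 1 lower. Bcl6 averaged 30.2 in naive and 2.43 in activated Ctrl, and Fas 7.67 and 7.29. Mki67 averaged 48.6 in activated and 70.2 in plasma Ctrl. Whole-gene RPKM cannot be divided by exon, so the deletion was not checked by the level of Ehmt2, which was 13.8 to 27.7 RPKM in Ctrl against 13.9 to 23.3 in KO naive cells, 19.5 to 25.7 and 21.6 to 23.3 in activated cells, and 16.2 to 17.8 and 12.3 to 14.7 in plasma cells (limma adjusted p 0.949, 0.945 and 0.110).

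**Figure D1:**
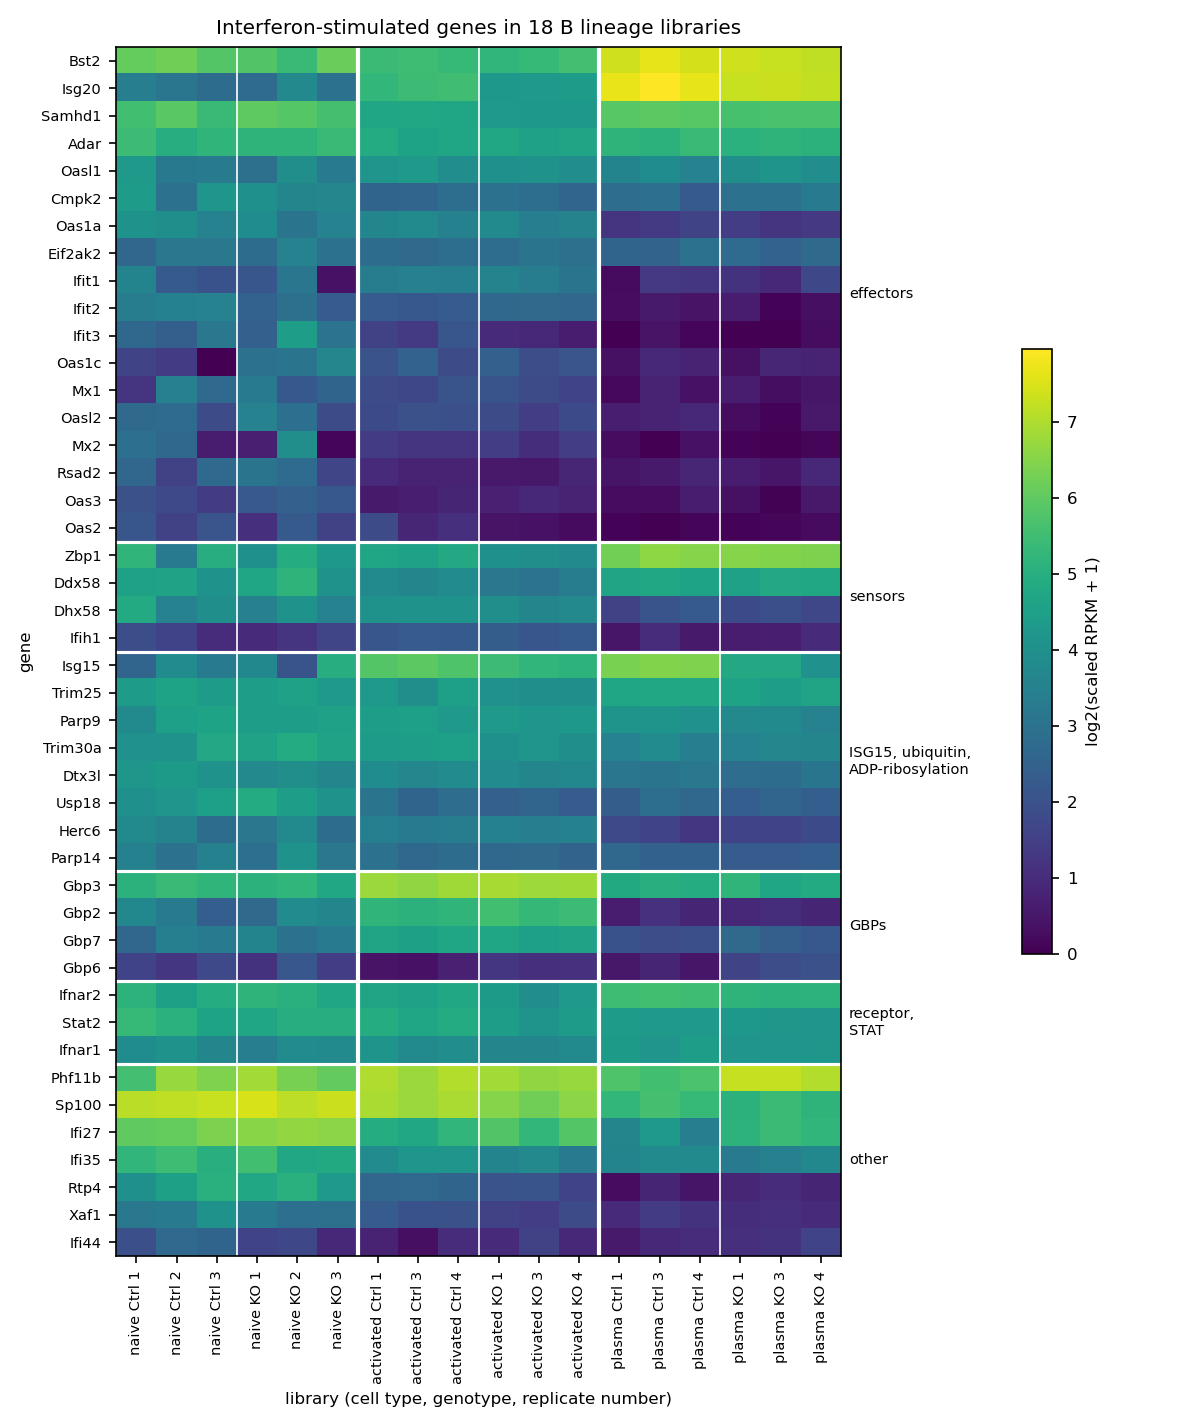
Level of each of the 44 interferon-stimulated genes (rows, grouped by role) in each of the 18 libraries (columns), as log2(scaled RPKM + 1). Isg20, Bst2 and Zbp1 are brightest in plasma cells, Gbp2, Gbp3 and Gbp7 in activated cells, and most Ifit, Mx and Oas rows, Oasl1 not among them, are dark in plasma cells.

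In Ctrl cells members were called in both directions at each step, as were all tested genes. From naive to activated cells 6 members rose (13.6%) and 17 fell (38.6%), near the 16% and 35% of all tested genes. The median change of the members was -0.36 and that of all genes -0.29. From activated to plasma cells 10 members rose (22.7%) and 26 fell (59.1%), against 24.1% and 26.2% of all genes, with medians of -0.60 and -0.03. From naive to plasma cells 5 rose (11.4%) and 28 fell (63.6%), against 21.8% and 41.1%, with medians of -1.12 and -0.37. In bulk libraries fewer cells that make a transcript and less of it per cell cannot be told apart. Naive Ctrl libraries also held more marker signal of some other cells than activated Ctrl ones. The erythroid list (2 of 6 genes) summed to 284 to 374 RPKM in naive and 4.02 to 4.98 in activated Ctrl. The platelet list (3 of 5) summed to 46.8 to 105 and 1.24 to 1.37. For the T cell list (4 of 8) the sums were 15.0 to 70.6 and 7.18 to 7.92. The dendritic and natural killer cell lists overlapped. The part of other cells in the naive levels was not tested. The 3 Ctrl plasma cell libraries were all below the naive and activated ones for 22 of 44 members (50.0%), against 18% of tested genes. They were all above them for 8 members (18.2%), against 16.2%. Naive libraries were highest for 14 members (31.8%, against 34.8% of all genes) and lowest for 2 (4.55%, against 14.9%). Activated libraries were highest for 6 (13.6%, against 8.15%) and lowest for 4 (9.09%, against 7.64%).

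Isg15 and Isg20, the only members lowest in naive cells, stood highest in plasma cells. Isg15, the ubiquitin-like modifier that is attached to other proteins, was 5.09, 13.3 and 8.84 RPKM in the naive Ctrl libraries, 56.0, 60.9 and 54.0 in the activated and 80.4, 85.6 and 84.9 in the plasma cell ones. The 3 cell types did not overlap. It rose by 2.61 (SE 0.28, limma adjusted p 0.000149) from naive to activated cells and by 0.55 (SE 0.07, limma adjusted p 7.67e-05) from activated to plasma cells, the latter not called when all 18 libraries shared 1 spread (limma adjusted p 0.449). Isg20, an exonuclease that degrades single-stranded RNA, was 9.49, 7.70 and 6.01 RPKM in naive, 37.4, 42.6 and 44.6 in activated and 205, 248 and 203 in plasma cells. It rose at both steps, by 2.30 (SE 0.20) and 2.37 (SE 0.10), and its plasma cell level of 218 ± 25.5 RPKM was the highest group mean of any member.

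Among the other direct effectors the abundant and the classical antiviral genes parted. Bst2, or tetherin, which holds budding virions at the membrane and is also found on plasma cells, was 65.9, 73.5 and 55.7 RPKM in naive, 41.6, 44.1 and 39.2 in activated and 165, 201 and 175 in plasma cells. It fell by 0.62 (SE 0.14) and then rose by 2.08 (SE 0.09). Samhd1, which hydrolyses deoxynucleotides, followed the same course (48.9 ± 9.55, 25.0 ± 0.533 and 59.3 ± 1.68 RPKM), as did Adar, which edits adenosine in double-stranded RNA (36.3 ± 6.24, 25.8 ± 2.69 and 36.7 ± 3.59). The first-step fall of Adar lost its call in 5 of the 6 fits that left out 1 library, with RPKM as deposited and with a filter at 5 RPKM (limma adjusted p up to 0.173). For both genes, naive and plasma cells did not differ beyond their spread (limma adjusted p 0.136 and 0.905). The opposite held for most of the Ifit, Mx and Oas genes. Ifit1, which binds the ends of viral RNA, was 10.9, 3.82 and 3.02 RPKM in naive, 9.15, 10.1 and 9.90 in activated and 0.179, 1.51 and 1.41 in plasma cells. It fell by 2.48 (SE 0.25) at the second step, with no overlap between activated and plasma cells. Ifit2 was 9.26, 10.3 and 10.6 RPKM in naive cells, 3.97, 3.59 and 3.97 in activated cells and 0.199, 0.482 and 0.330 in plasma cells, and Ifit3 fell over the same steps from 5.90 ± 1.96 through 2.27 ± 0.936 to 0.147 ± 0.179 RPKM. Mx1, Mx2, Oas1a, Oas1c, Oas2 and Oasl2 also fell from activated to plasma cells, where their means lay between 0.0477 (Oas2) and 1.65 RPKM (Oas1a), a range in which odorant receptor genes were also found. The call for Mx2 was lost with 1 spread over all 18 libraries (limma adjusted p 0.286). Oasl1 fell less, from 16.4 ± 2.33 to 11.7 ± 1.58 RPKM (-0.45, SE 0.13), a call lost without activated Ctrl 3 and with 1 spread over all 18 libraries (limma adjusted p 0.212). Rsad2, or viperin, was 5.21, 1.98 and 5.63 RPKM in naive and 0.964, 0.713 and 0.719 in activated cells, a fall of 1.47 (SE 0.35). It lay below the odorant receptor median of every naive Ctrl library (6.60, 4.30 and 7.02 RPKM). That median was 0.772, 0 and 0.952 in activated Ctrl. The call of Rsad2 was lost under quantile normalization (limma adjusted p 0.171). Cmpk2, its neighbour on chromosome 12, fell too, from 14.5 ± 6.82 to 5.41 ± 0.743 RPKM, while Eif2ak2, the RNA-dependent kinase PKR, was not called at any step (7.15 ± 1.76, 5.99 ± 0.305 and 5.49 ± 1.13).

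The 4 sensors split in pairs. Zbp1, a sensor of Z-form nucleic acid, was 36.0, 8.54 and 29.8 RPKM in naive, 24.9, 22.7 and 26.8 in activated and 76.2, 96.4 and 90.4 in plasma cells. Its naive libraries were the most scattered, and it rose by 1.78 (SE 0.10) from activated to plasma cells. Ddx58, the RNA helicase RIG-I, fell from 20.3 ± 4.05 to 12.7 ± 0.989 RPKM and rose to 24.4 ± 1.12. The call of its fall was lost in 5 of the 6 fits that left out 1 library (limma adjusted p up to 0.114). Dhx58, its relative LGP2, went from 15.9 ± 0.284 in activated to 2.95 ± 0.961 RPKM in plasma cells, a fall of 2.13 (SE 0.17), and Ifih1, the sensor MDA5, from 3.66 ± 0.249 to 0.632 ± 0.317.

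Of the 4 guanylate-binding proteins, GTPases that coat intracellular pathogens, 3 were highest in the activated cells. Gbp2 was 12.1, 8.98 and 4.19 RPKM in naive, 36.1, 33.9 and 36.3 in activated and 0.513, 1.20 and 0.759 in plasma cells. It rose by 2.05 (SE 0.31) and then fell by 4.34 (SE 0.15), the largest change of any member at the second step. Gbp3 was 33.5, 40.6 and 35.8 RPKM in naive, 108, 98.6 and 112 in activated and 27.2, 30.8 and 29.4 in plasma cells, and Gbp7 was 5.13, 9.89 and 8.57, then 24.0, 21.8 and 25.1, then 3.004, 2.708 and 2.847. These 3 genes lie near each other on chromosome 3. Gbp6, on chromosome 5, kept below 2.5 RPKM in every Ctrl library and was called lower in activated cells (-1.03, SE 0.26), a direction that did not hold under quantile normalization (0.04). Gbp6 lay below the odorant receptor median of every naive Ctrl library (6.60, 4.30 and 7.02 RPKM).

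**Figure D2:**
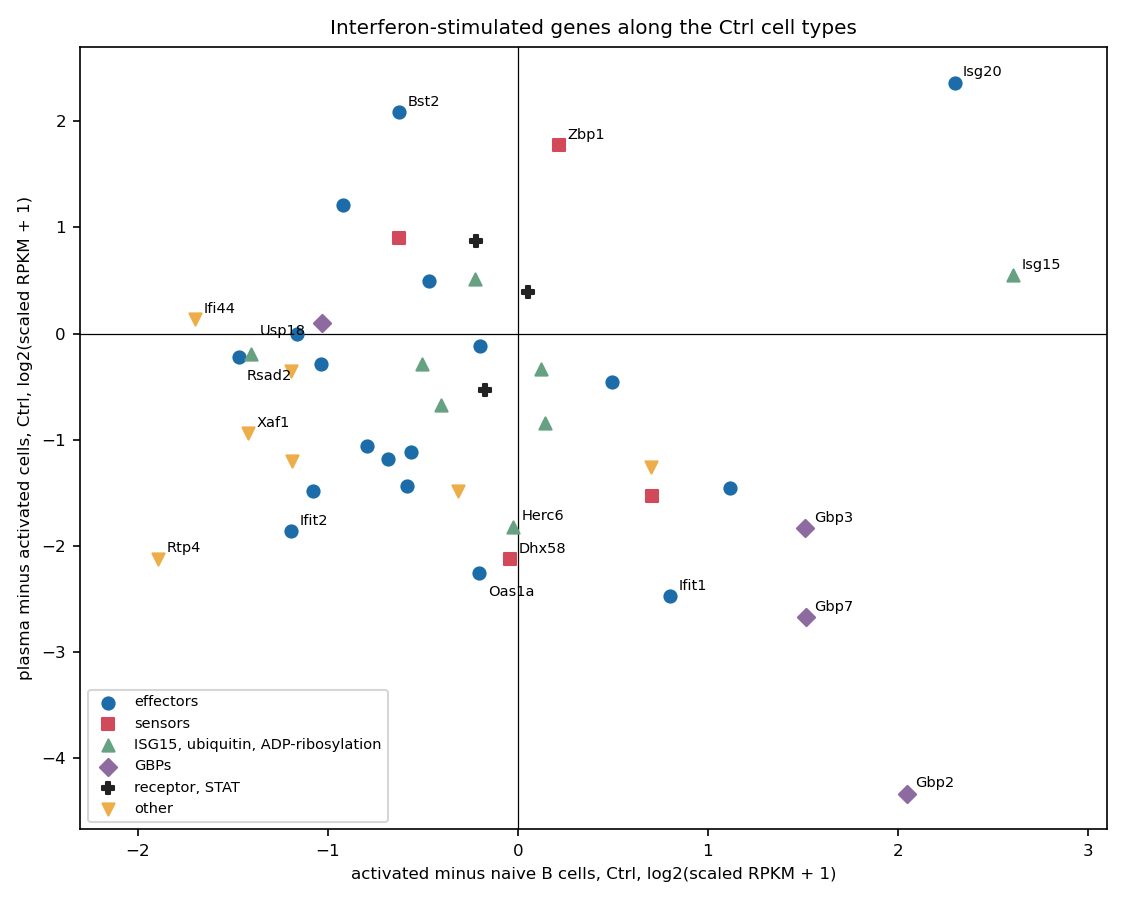
Each point is 1 of the 44 interferon-stimulated genes in Ctrl cells, with the difference of log2(scaled RPKM + 1) between activated and naive cells on the x axis and that between plasma and activated cells on the y axis, and the shape giving the role. Gbp2, Gbp3 and Gbp7 sit at the lower right, Isg20 and Isg15 at the upper right, and Rtp4 and Ifit2 at the lower left.

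Of the ISG15 and ubiquitin genes other than Isg15, Usp18, the protease that takes ISG15 off its targets, fell from 17.9 ± 3.23 to 6.15 ± 1.28 RPKM on activation. Herc6, the mouse ligase for ISG15, fell from 9.27 ± 0.549 in activated to 1.93 ± 0.483 RPKM in plasma cells. Trim25, a ubiquitin ligase acting on RIG-I, was 19.96, 23.4 and 19.6 RPKM in naive, 18.2, 14.2 and 21.6 in activated and 24.8, 26.1 and 26.2 in plasma cells. Parp9 was 12.6, 21.7 and 23.8, then 21.1, 21.3 and 18.9, then 16.2, 16.2 and 15.3 RPKM, and its partner Dtx3l fell to 7.74 ± 0.381 RPKM in plasma cells. Both Ifnar1 and Ifnar2 were higher in plasma than in activated cells (by 0.40, SE 0.12, and 0.87, SE 0.08), while Stat2 was lower (-0.53, SE 0.09). The call for Ifnar1 was lost without activated Ctrl 3, without plasma Ctrl 4, with RPKM as deposited and with 1 spread over all 18 libraries (limma adjusted p up to 0.215).

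The remaining induced genes were mostly highest in naive cells. Rtp4, a chaperone of receptors on their way to the surface, was 15.0, 22.1 and 31.8 RPKM in naive, 5.12, 5.62 and 4.86 in activated and 0.2002, 0.770 and 0.355 in plasma cells, and fell by 1.89 (SE 0.27) and 2.12 (SE 0.17). Ifi44 was 2.81, 5.60 and 4.86 RPKM in naive and 0.728, 0.250 and 1.00 in activated cells. It lay below the odorant receptor median in naive Ctrl 1 and 3 (6.60 and 7.02 RPKM). Its fall was not called under quantile normalization (limma adjusted p 0.0921). Sp100, a component of nuclear bodies, was 138, 146 and 156 RPKM in naive, 122, 108 and 123 in activated and 37.7, 48.0 and 39.2 in plasma cells. Ifi27, a small membrane protein, fell from 71.0 ± 10.8 through 30.6 ± 5.37 to 13.1 ± 4.77 RPKM. Phf11b, of the PHD finger family, was 47.2, 104 and 84.2, then 129, 108 and 131, then 54.0, 46.1 and 51.5 RPKM. Its fall at the second step (-1.26, SE 0.09) was called in every setting tried, and its rise at the first (0.70, SE 0.25) was lost without naive Ctrl 3, without any 1 activated Ctrl library, under quantile normalization and with a filter at 5 RPKM (limma adjusted p up to 0.174).

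The first step rested on single libraries for part of its calls. Without activated Ctrl 1, 15 members were called between naive and activated cells, and Adar, Cmpk2, Ddx58, Gbp6, Ifit3 and Oas3 were among the calls lost. The gains of Isg15, Isg20, Gbp2, Gbp3 and Gbp7 were called under every left-out library. So were the falls of Rtp4, Ifi27, Ifi35, Ifi44, Ifit2, Bst2, Samhd1, Usp18, Xaf1 and Rsad2. In KO cells 5 members rose (11.4%) and 19 fell (43.2%) from naive to activated cells, against 17% and 25.1% of all genes. From activated to plasma KO cells 11 rose (25%) and 23 fell (52.3%), against 24.4% and 28.4%.

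Between genotypes, no member was called in naive cells, where limma called 0% of all tested genes higher and 0% lower. Without adjustment 3 of the 44 members and 898 of the 12787 genes had a p under 0.05. Those 3, picked here by that p, were Oas1c, Ifi44 and Ifit2. Oas1c was 2.10, 1.68 and 0 RPKM in Ctrl and 6.88, 7.36 and 11.7 in KO, and Ifit2 was 9.26, 10.3 and 10.6 in Ctrl and 4.69, 6.69 and 3.93 in KO. Ifi44 was 2.81, 5.60 and 4.86 in Ctrl and 2.01, 2.27 and 0.905 in KO. The odorant receptor median of these libraries was 4.30 to 7.02 RPKM in Ctrl and 1.7 to 5.04 in KO. They were called when all 18 libraries shared 1 spread, a fit in which 2.1% of all genes were called higher and 5.12% lower.

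In activated cells 3 members rose in KO and 13 fell, so that 29.5% of the 44 were lower against 6.02% of all tested genes, and 6.82% were higher against 5.26%. The median change was -0.18 for the members and -0.02 for all genes. By role, 4 of 18 effectors, 2 of 4 sensors, 2 of 8 ISG15 and ubiquitin genes, 2 of 3 receptor and STAT genes and 3 of 7 other genes fell, and no guanylate-binding protein did. With 1 spread over all 18 libraries only Isg20 was called (0 higher, 1 lower, against 0.422% and 1.36% of all genes). The naive libraries widen that spread.

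**Figure D3:**
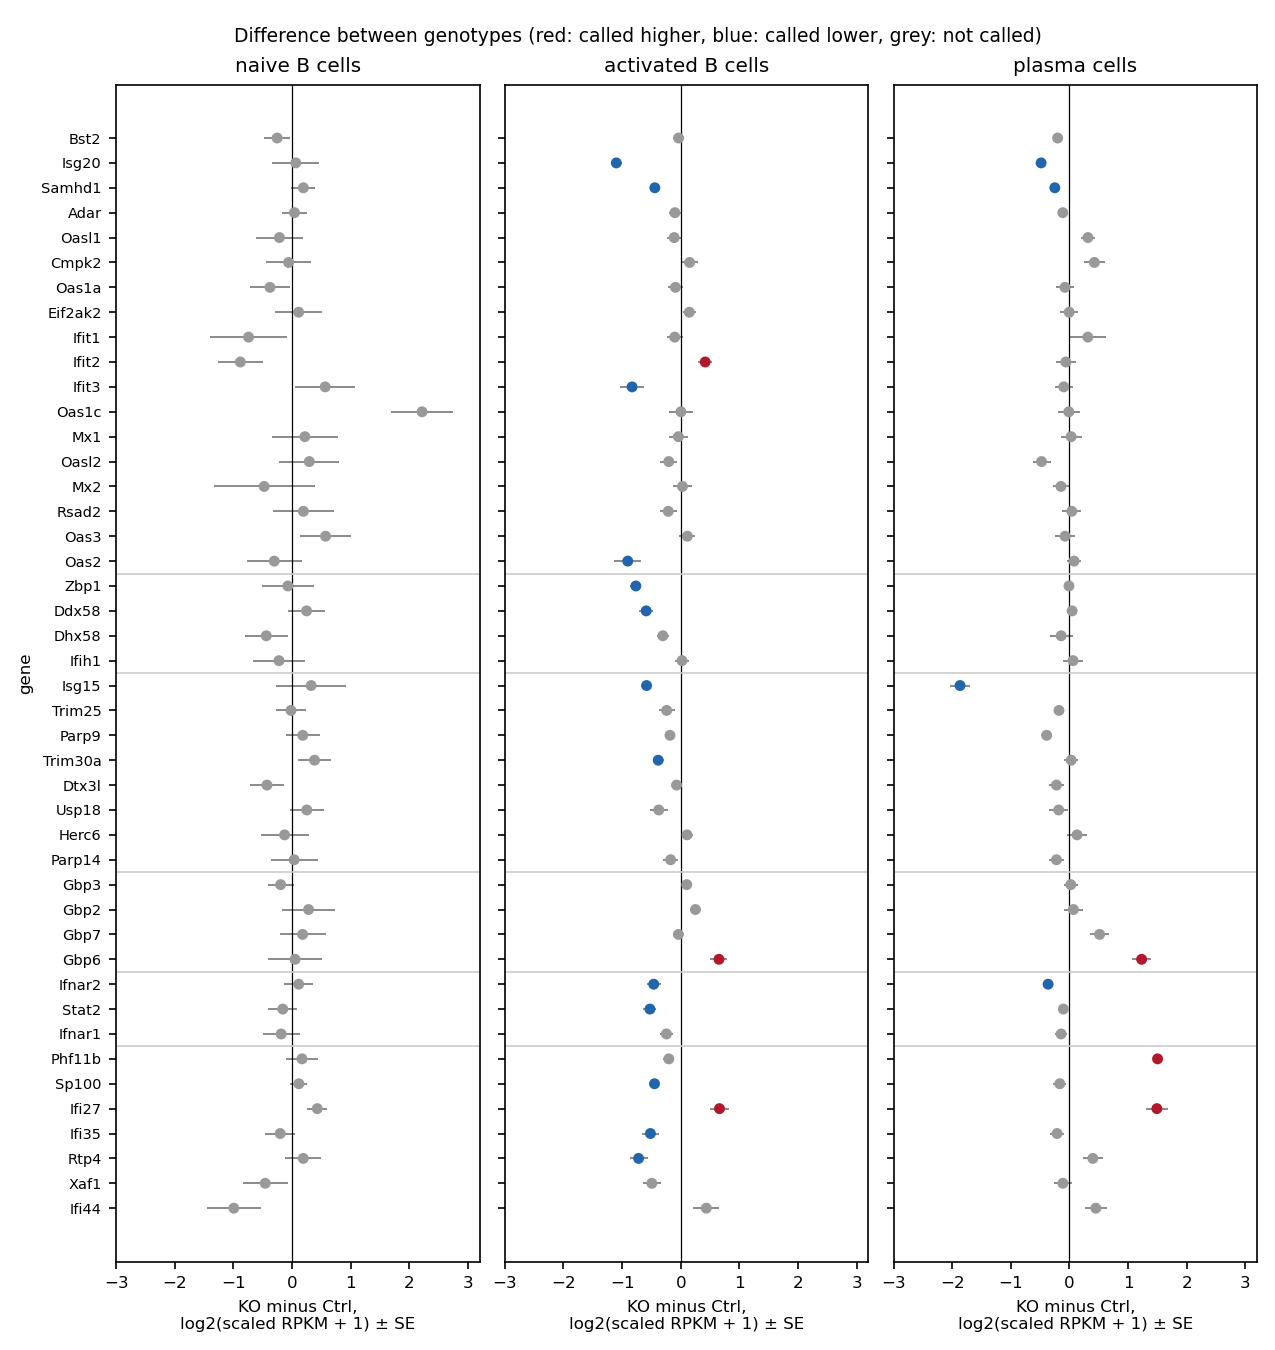
Difference between KO and Ctrl in log2(scaled RPKM + 1) (x axis, point with SE, 3 libraries per group) for each of the 44 genes in naive, activated and plasma cells, with genes ordered by role and grey lines between roles. Red points are called higher and blue points lower by limma, with 0 called in naive cells, 16 in activated and 7 in plasma cells.

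Isg20 was 37.4, 42.6 and 44.6 RPKM in activated Ctrl and 17.95, 18.2 and 20.3 in activated KO. It fell by 1.10 (SE 0.09, limma adjusted p 0.000174), with no overlap. Zbp1 was 24.9, 22.7 and 26.8 in Ctrl and 15.0, 14.4 and 13.1 in KO (-0.76, SE 0.10). Isg15 was 56.0, 60.9 and 54.0 in Ctrl and 42.5, 36.8 and 34.2 in KO (-0.58, SE 0.09). All KO libraries of these genes lay below all Ctrl libraries. Samhd1 was 24.5, 25.5 and 25.1 in Ctrl and 18.9, 17.8 and 17.9 in KO (-0.44, SE 0.08). These 4 calls held whichever of the 6 libraries was left out (limma adjusted p up to 0.0334). The others did not all do so: leaving out Ctrl 1, 3 or 4 gave 5, 10 and 8 called members, and leaving out KO 1, 3 or 4 gave 9, 13 and 9.

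The next calls were those of a sensor, the receptor and its transducer. Ddx58 was 13.1, 11.5 and 13.3 RPKM in Ctrl and 8.07, 7.16 and 9.07 in KO (-0.59, SE 0.12), a call lost without Ctrl 1 (limma adjusted p 0.0504). Stat2, a transducer of the type I response, was 29.6, 25.1 and 28.6 in Ctrl and 21.0, 16.3 and 19.9 in KO (-0.52, SE 0.11), lost without Ctrl 1 or Ctrl 4. Ifnar2 was 24.1, 22.5 and 25.5 in Ctrl and 19.3, 14.1 and 18.5 in KO (-0.46, SE 0.12), lost without any 1 Ctrl library or without KO 3. In none of the 3 did the genotypes overlap, as is likely for genes picked by a call. Ifnar1, the other receptor chain, was 14.2 ± 1.88 in Ctrl and 11.8 ± 0.646 in KO and was not called (-0.24, SE 0.11, limma adjusted p 0.202).

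Sp100 was 122, 108 and 123 RPKM in Ctrl and 90.3, 74.8 and 93.9 in KO (-0.45, SE 0.10), lost without Ctrl 1 or Ctrl 4. Rtp4 was 5.12, 5.62 and 4.86 in Ctrl and 3.12, 3.21 and 2.06 in KO (-0.72, SE 0.15), lost without Ctrl 1 or Ctrl 3. Ifi35 was 13.4, 17.01 and 16.9 in Ctrl and 11.1, 12.5 and 8.71 in KO (-0.52, SE 0.14), lost without Ctrl 3, Ctrl 4, KO 1 or KO 4. These groups were separate but close in the case of Ifi35. Trim30a, a ubiquitin ligase of mouse macrophages and lymphocytes, was 20.3, 20.4 and 21.5 in Ctrl and 15.0, 17.2 and 14.8 in KO (-0.38, SE 0.09), a call that held only without KO 3. Ifit3 (1.91, 1.58 and 3.34 in Ctrl, 0.992, 0.903 and 0.527 in KO) and Oas2 (2.57, 0.800 and 1.09 in Ctrl, 0.338, 0.298 and 0.181 in KO) were low, and each held its call only without Ctrl 3. For both, the Ctrl and KO ranges were apart.

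The 3 members that rose in activated KO cells belonged to different roles. Ifi27 was 29.3, 26.1 and 36.6 RPKM in Ctrl and 54.7, 37.8 and 55.5 in KO (0.66, SE 0.16), lost without Ctrl 1, Ctrl 3, KO 1 or KO 4. Gbp6 was 0.327, 0.308 and 0.644 in Ctrl and 1.42, 1.09 and 1.20 in KO (0.65, SE 0.14), lost without Ctrl 1, KO 1 or KO 4. Ifit2 was 3.97, 3.59 and 3.97 in Ctrl and 5.52, 5.67 and 5.22 in KO (0.42, SE 0.12), and its call was lost whichever library was left out. Ifit2 and Ifit3, neighbours on chromosome 19, thus moved in opposite directions, while Ifit1 was 9.72 ± 0.500 in Ctrl and 9.08 ± 1.68 in KO. The other guanylate-binding proteins were not called, with Gbp2 at 36.1, 33.9 and 36.3 in Ctrl and 46.2, 38.1 and 43.1 in KO (limma adjusted p 0.0992), Gbp3 at 106 ± 7.05 and 114 ± 5.43, and Gbp7 at 23.7 ± 1.7 and 23.0 ± 1.38.

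Marker lists of other cells moved with genotype in the activated libraries. The plasma cell list summed to 754 to 847 RPKM in Ctrl and 337 to 436 in KO, with 3 of its 6 genes called lower. Most of this was Xbp1 (406 and 210 on average) and Jchain (328 and 127). Prdm1 averaged 31.5 and 17.2, Irf4 44.3 and 41.3, Sdc1 1.10 and 0.578, and Tnfrsf17 0.455 and 0.547. Isg15, Isg20, Zbp1, Ddx58, Samhd1 and Ifnar2 are members that fell in activated KO cells and are also higher in Ctrl plasma than in Ctrl activated cells. The other 7 that fell (Ifi35, Ifit3, Oas2, Rtp4, Sp100, Stat2 and Trim30a) are lower in Ctrl plasma than in Ctrl activated cells. The B cell list (6 of 6) summed to 3316 to 3763 in Ctrl and 2449 to 2602 in KO. The monocyte list (6 of 9 tested) summed to 44.9 to 53.2 in Ctrl and 122 to 156 in KO, mostly through Ly6c2 (14.4 and 96.8 on average), while its defining gene Csf1r averaged 0.388 and 0.335. The erythroid list (2 of 6) was 4.02 to 4.98 in Ctrl and 14.7 to 23.0 in KO, and the T cell list (4 of 8) 7.18 to 7.92 and 12.1 to 13.97. The plasmacytoid dendritic cell list (4 of 6, Bst2 among them) was 60.8 to 66.04 and 62.7 to 74.6. The part of these cells in the changes of the members was not tested.

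In plasma cells 3 members rose in KO and 4 fell, which is 6.82% higher against 2.38% of all tested genes and 9.09% lower against 2.73%. The median change was -0.07 for the members and -0.00 for all genes. With 1 spread over all 18 libraries the 3 that rose were called and none that fell (against 0.438% and 0.172% of all genes). Without plasma KO 1, 4 members were called.

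**Figure D4:**
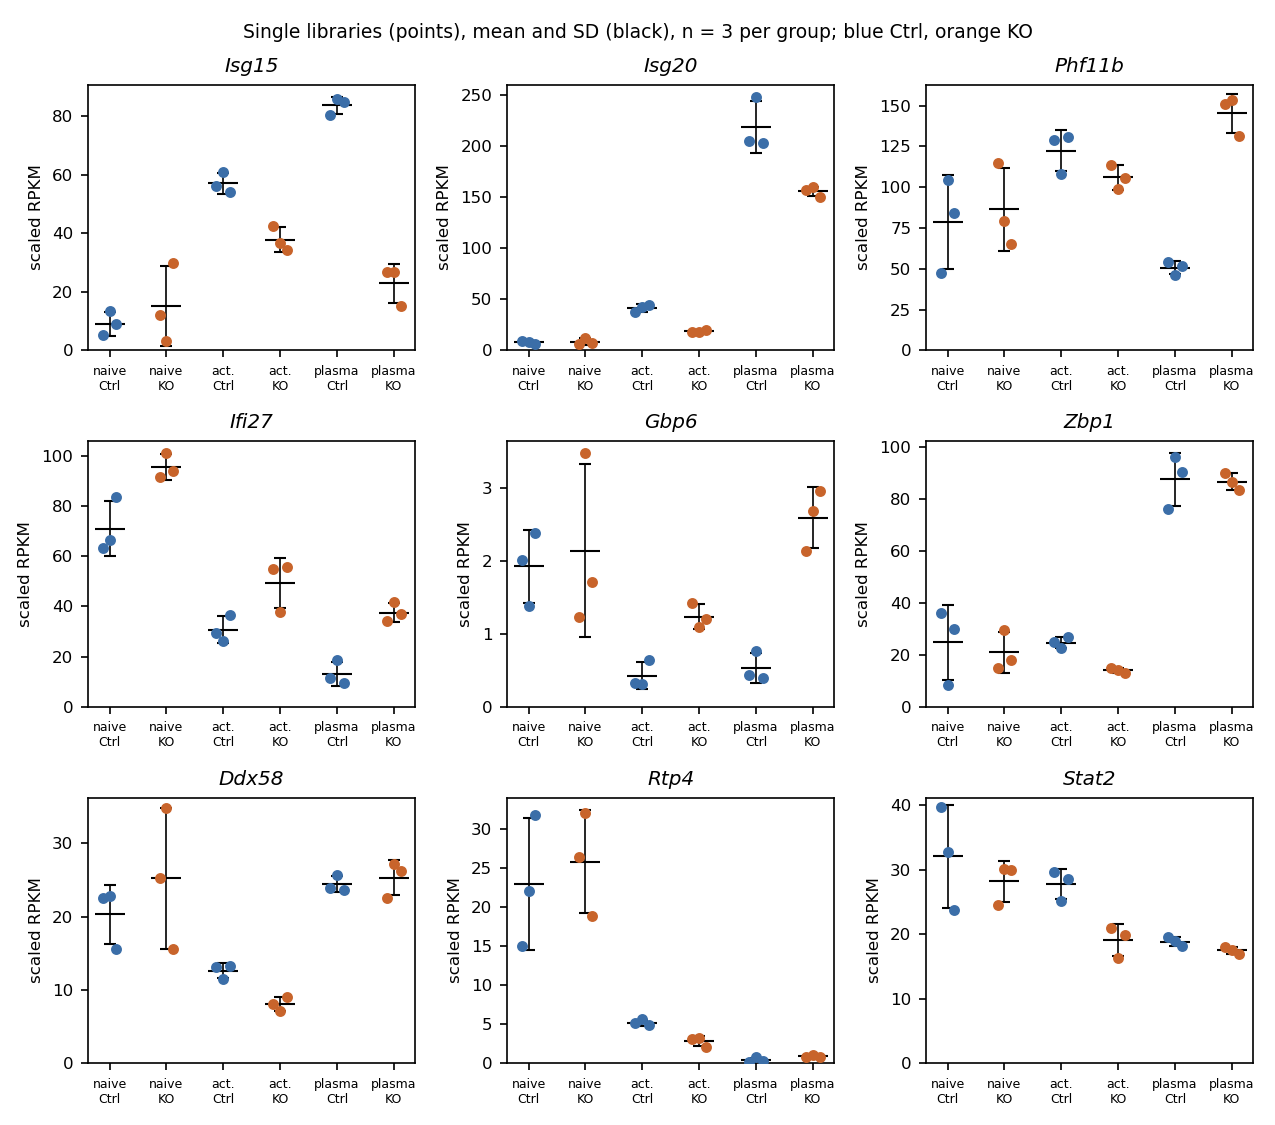
Scaled RPKM (y axis, from 0) of 9 interferon-stimulated genes in single libraries of the 6 groups (x axis), with the mean and SD of 3 libraries in black, Ctrl in blue and KO in orange. Isg15 is lower and Phf11b, Ifi27 and Gbp6 are higher in all 3 plasma cell KO libraries than in all 3 Ctrl libraries, and Zbp1 and Ddx58 are lower in KO in activated cells.

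Isg15 was 80.4, 85.6 and 84.9 RPKM in plasma cell Ctrl and 26.7, 26.8 and 15.2 in KO. It fell by 1.87 (SE 0.18, limma adjusted p 0.000437), the largest genotype difference of a member in either sorted cell type, and stayed called whichever library was left out, but not with 1 spread over all 18 libraries (limma adjusted p 0.0915). Isg15 was higher in plasma than in activated cells of Ctrl mice and lower in those of KO mice (-0.74, SE 0.19), and with 1 spread over all 18 libraries neither step was called. No other gene of the ISG15 and ubiquitin role was called. Usp18 was 5.27 ± 1.13 and 4.47 ± 0.495 and Herc6 1.93 ± 0.483 and 2.19 ± 0.240 RPKM in Ctrl and KO. Parp9 came nearest, at 16.2, 16.2 and 15.3 in Ctrl and 12.5, 12.9 and 10.6 in KO, which did not overlap (-0.39, SE 0.10, limma adjusted p 0.0550). It was called lower under quantile normalization, with a filter at 5 RPKM, with a replicate block and with the 12 activated and plasma cell libraries in 1 fit. Summed over the role, 8 genes gave 156 ± 5.28 RPKM in Ctrl and 86.0 ± 5.77 in KO, in which Isg15 alone was 83.7 ± 2.85 and 22.9 ± 6.66.

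Isg20 was 205, 248 and 203 RPKM in plasma cell Ctrl and 157, 159 and 150 in KO (-0.48, SE 0.08, lost without KO 1 or KO 4). Ifnar2 was 43.7, 46.1 and 44.2 in Ctrl and 35.0, 33.8 and 34.7 in KO (-0.36, SE 0.06, lost without KO 1). Samhd1 was 57.9, 61.1 and 58.8 in Ctrl and 48.9, 50.3 and 50.0 in KO (-0.25, SE 0.06), and its call was lost whichever library was left out. The groups were separate for all 3, as is likely for called genes. All 4 members that fell in plasma cells had fallen in activated cells, and they are 30.8% of those 13. The like overlap over all tested genes was not counted, so this is not a trait shown for the members.

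Phf11b was 54.0, 46.1 and 51.5 RPKM in plasma cell Ctrl and 151, 154 and 131 in KO. It rose by 1.5 (SE 0.08, limma adjusted p 1.02e-05), and the KO level of 145 ± 12.1 was above that of every activated Ctrl library. Ifi27 was 11.3, 18.6 and 9.57 in Ctrl and 34.03, 41.7 and 36.8 in KO (1.49, SE 0.19, limma adjusted p 0.00269). Gbp6 was 0.438, 0.762 and 0.388 in Ctrl and 2.13, 2.68 and 2.95 in KO (1.23, SE 0.16, limma adjusted p 0.00281). No Ctrl library reached a KO library in any of the 3, as is likely for called genes. These calls held whichever library was left out and in every other setting in which the gene was tested. Ifi27 and Gbp6 were the members higher in KO in both sorted cell types, 66.7% of the 3 in each, again with no overlap counted over all genes.

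Near relatives of these 3 genes, picked after their values were seen, were read beside them because reads of close copies can be divided between genes. Phf11a was 1.16, 2.81 and 3.30 RPKM in plasma cell Ctrl and 17.4, 16.0 and 13.1 in KO (2.32, SE 0.23), and Phf11d was at most 0.820 in both and not called. Gbp10 was 0.239, 0.658 and 0.248 in Ctrl and 1.90, 1.62 and 2.19 in KO (1.08, SE 0.16), while Gbp11 was 0.465 ± 0.206 and 0.417 ± 0.417 and not called (-0.08, limma adjusted p 0.897). Ifi27l2a was 127, 189 and 128 in Ctrl and 196, 237 and 187 in KO and was not called (limma adjusted p 0.0884), while in activated cells it was 159, 163 and 188 in Ctrl and 119, 93.6 and 121 in KO, a fall of 0.61 (SE 0.11) where Ifi27 had risen. The RefSeq interval of Ifi27 (chr12:103434189-103440245) lies inside that of Ifi27l2a (chr12:103433873-103443680). How reads were divided between these genes is not stated in the sources used here, so their values may not be separate.

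The sensors did not differ between genotypes in plasma cells beyond their spread. Zbp1 was 76.2, 96.4 and 90.4 RPKM in Ctrl and 90.1, 86.7 and 83.6 in KO (-0.01, SE 0.09), and Ddx58 was 23.9, 25.7 and 23.7 in Ctrl and 22.6, 27.1 and 26.3 in KO (0.05, SE 0.09). Their groups overlapped. Stat2 was 19.5, 18.9 and 18.2 in Ctrl and 18.1, 17.5 and 16.9 in KO, which did not overlap but were not called (-0.10, SE 0.08, limma adjusted p 0.550). Bst2 was 180 ± 18.3 and 156 ± 10.2, Sp100 41.6 ± 5.58 and 37.0 ± 4.14, and Trim25 25.7 ± 0.826 and 22.7 ± 1.77, also not called. The monocyte list summed to 280 to 412 RPKM in Ctrl and 1709 to 1870 in KO, with 1 of its 6 genes called higher. Most of this sum was Ly6c2, at 338 and 1753 on average. Lyz2 averaged 6.36 and 4.74 and Cd68 11.2 and 16.1, while Csf1r was 0.135 to 0.889 and 0 to 6.35. The erythroid list was 0 to 0.764 in Ctrl and 0.635 to 45.4 in KO. The T cell list was 1.76 to 3.28 in Ctrl and 10.2 to 15.3 in KO. Its Cd3e (0.0767 and 8.71 on average) and Cd8b1 (0.822 and 3.13) rose, while Lck (1.59 and 1.54) and Cd4 (0.0645 and 0.0559) did not. The B cell list was 1337 to 1682 and 977 to 1126, with 1 of its 6 genes called lower. The plasma cell list summed to 8501 to 9528 and 7835 to 8798. The part of other cells in these changes was not tested.

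The difference between the genotype effects was tested directly. Between activated and naive cells limma called no member, and called 0.0626% of all tested genes with a higher and 0.125% with a lower effect in activated cells. Without adjustment 10 of the 44 members and 1499 of the 12787 genes had a p under 0.05. Between plasma and activated cells 5 members (11.4%) had a higher effect in plasma cells and 1 (2.27%) a lower one, against 1.25% and 0.375% of all genes. The effect on Phf11b was 1.71 higher (SE 0.13), that on Rtp4 1.12 (SE 0.23), on Zbp1 0.76 (SE 0.13), on Ddx58 0.64 (SE 0.14) and on Isg20 0.62 (SE 0.13). For Zbp1, Ddx58 and Isg20 the fall in activated cells was larger than the change in plasma cells. The effect on Isg15 was the reverse, 1.28 further down in plasma cells (-1.28, SE 0.22). The calls of Phf11b, Isg15 and Zbp1 held whichever of the 12 libraries was left out. Those of Rtp4 and Ddx58 were each lost in 8 of these 12 fits and that of Isg20 in 6. Rtp4 was also not called under quantile normalization or with a pseudocount of 0.1, and Ddx58 not with a replicate block. The count was 3 without activated Ctrl 4, plasma Ctrl 1, plasma Ctrl 4 or plasma KO 3, and with 1 spread over all 18 libraries Phf11b alone was called.

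Genes that make, carry or restrain the interferon signal were read from a separate list of 40 symbols, of which 35 were tested. Tmem173 and Mb21d1 were also listed under their newer names, Sting1 and Cgas, which had no row. None was called between genotypes in naive cells. In activated cells 0 of the 35 rose and 8 fell, against 5.26% and 6.02% of all tested genes, with a median change of -0.22 (all genes -0.02). Irf7, the factor that amplifies type I interferon production, was 13.0, 19.3 and 18.5 RPKM in activated Ctrl and 2.73, 4.12 and 3.74 in KO. It fell by 1.98 (SE 0.17, limma adjusted p 0.000181), more than any member, with no overlap. Irf1 was 34.3, 32.0 and 32.7 in Ctrl and 22.0, 18.6 and 15.7 in KO (-0.80, SE 0.11), and Irf9, a DNA-binding partner of STAT2, was 29.3, 26.3 and 31.0 in Ctrl and 20.4, 16.8 and 20.3 in KO (-0.57, SE 0.10). Ticam1, the adaptor TRIF, which links the LPS receptor to interferon production, fell by 0.60 (SE 0.13). The other 4 were Tlr3, Irf2, Il10rb and Socs3.

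In plasma cells 2 genes of that list rose and 2 fell, against 2.38% and 2.73% of all tested genes, with a median of -0.12 (all genes -0.00). Irf1 fell again (40.9, 38.9 and 45.5 against 30.4, 32.3 and 28.9 RPKM, -0.44, SE 0.08), as did Ticam1 (-0.40, SE 0.08). Ptpn6, the phosphatase SHP-1, rose by 0.65 (SE 0.13) and Tlr7, a sensor of single-stranded RNA, by 0.75 (SE 0.17). Irf7 was 26.3, 33.9 and 28.5 in Ctrl and 24.2, 32.8 and 19.5 in KO, groups that overlapped (-0.23, SE 0.16, limma adjusted p 0.512). Along the Ctrl cell types, 3 of the 35 rose and 15 fell from naive to activated cells, against 16% and 35% of all genes. From activated to plasma cells 8 rose and 17 fell, against 24.1% and 26.2%.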

How the data were processed

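RNA-seq libraries of 18 mouse spleen B lineage samples were used. The values are the deposited RPKM values, which the authors computed for 12960 genes. Per the submitters' processing notes STAR was the aligner named and mm10 the build, and the sources used here name no version, gene model, read counter or rule for detected genes. RPKM was scaled by 1 median-of-ratios factor for each library (0.903 to 1.07, over 8012 genes above 1 RPKM in all libraries). The 12787 genes whose mean reached 1 scaled RPKM in at least 1 group were tested on log2(scaled RPKM + 1), a scale that understates changes of low genes, and 173 were left out. Groups came from the sample titles.

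Each contrast was fitted with limma 3.58.1 (R 4.3.3; lmFit, eBayes with trend, two-sided) over the libraries of the compared groups only, since the naive libraries varied more, with Benjamini-Hochberg adjustment over all tested genes and calls under 0.05. Differences between genotype effects were interaction terms. The fit was tested on simulated data. Alternatives were 1 fit over all 18 libraries, RPKM as deposited, quantile normalization, a pseudocount of 0.1, a filter at 5 RPKM, a replicate block and each library left out. A fit of the 12 activated and plasma cell libraries together was chosen after seeing the data.

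The members and lists were chosen with earlier results of these data known, so no p is given over a list. Members called between genotypes, the 3 largest called changes in each direction at each Ctrl step and up to 3 per role with the highest mean are given library by library. Depth is not stored in RPKM. It was estimated from the steps between low values multiplied by gene length, known for 96.3% of genes, and for naive Ctrl 1 the estimates of 2.05 and 4.14 mega-reads scored nearly alike. Symbols (20 of them date-like) and positions were matched through Entrez identifiers to RefSeq (12946 genes). Tables and plots were made with Python 3.11.15, pandas 2.3.3 and matplotlib 3.10.9. Some items of the labels and lists are not reported here.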

Additional observations from a re-analysis of the deposited data

Results flagged for a closer look

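The genotype effect differed between 2 cell types by an interaction test in limma for the genes that follow, with the difference in log2(scaled RPKM + 1) given for each. Between plasma and activated cells the effect was higher in plasma cells for Phf11b (1.71, adjusted p 2.60e-05), Rtp4 (1.12, adjusted p 0.0255), Zbp1 (0.76, adjusted p 0.00725), Ddx58 (0.64, adjusted p 0.038) and Isg20 (0.62, adjusted p 0.0212), and lower for Isg15 (-1.28, adjusted p 0.00779). Among genes of the interferon pathway that are not members it was higher for Irf7 (1.75), Tlr7 (1.00) and Ptpn6 (0.74). Among the near relatives picked after their values were seen it was higher for Phf11a (1.60) and Ifi27l2a (1.11).

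Between activated and naive cells the effect was lower in activated cells for Irf7 (-2.00, limma adjusted p 0.0225) and Ifi27l2a (-0.998, limma adjusted p 0.0493).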

How the results depend on the processing

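Of 1207 alternative values for 88 single-gene results, 1050 kept their direction and call, 156 lost the call and 1 turned. The one that turned was the step from naive to activated Ctrl cells for Gbp6, 0.0411 under quantile normalization. The cause was not tested. With 1 spread over all 18 libraries the called members numbered 3 in naive, 1 in activated and 3 in plasma cells between genotypes, 3 for the difference of effects between activated and naive cells and 1 between plasma and activated cells. Quantile normalization moved the median of all genes from -0.29 to -0.06 between naive and activated Ctrl cells and from -0.37 to -0.06 between naive and plasma cells, and left 7 members higher and 11 lower in the first and 21 called in the second. RPKM as deposited moved the median from activated to plasma Ctrl cells from -0.03 to -0.14.

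With each library left out in turn, called members numbered 0 in naive, 5 to 13 in activated and 4 to 6 in plasma cells between genotypes. They numbered 15 to 25 from naive to activated, 33 to 36 from activated to plasma and 28 to 33 from naive to plasma cells in Ctrl, and 16 to 27 and 32 to 34 over the first and second step in KO. The differences of effects gave 0 to 1 between activated and naive cells, the 1 without naive KO 2, and 3 to 7 between plasma and activated cells.

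Same-numbered libraries did not deviate together in every pair (correlations of deviations -0.21 to 0.31), so the numbers were not taken as pairs. With a replicate block 0, 15 and 8 members were called between genotypes in naive, activated and plasma cells, 36 and 32 from activated to plasma cells in Ctrl and KO, and 5 for the difference of effects. RPKM holds no counts, so counting error could not be set beside the spread of 3 libraries, and members below about 2 RPKM are the least certain.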
